A study of Mus musculus with 12 samples.

Results

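Integrins, laminins, the dystroglycan gene and the nidogens were examined in mouse glioblastoma cell cultures and in neural stem cell (NSC) cultures. The set was 33 named genes, taken wherever the array annotation gave a probe set exactly 1 gene symbol and that symbol was one of them. Each gene had 1 such probe set, so the set made up 33 of 21780 probe sets. By role it held 21 receptor genes (20 integrin subunits and dystroglycan, Dag1), 10 laminin chains and 2 nidogens. The cultures numbered 12, with 1 array each. Tumour cultures were mGC1_GFAP, mGC2_NES and mGC3_CNP, with 3 biological replicates each, grown from glioblastomas that followed injection of chicken DF-1 cells producing RCAS-PDGFB-HA, a retrovirus carrying a growth factor gene, into adult brain. The mGC1_GFAP cultures came from G/tv-a;Arf-/- mice, the mGC2_NES cultures from N/tv-a;Arf-/- mice and the mGC3_CNP cultures from C/tv-a;Arf-/- mice. In these lines tv-a, the receptor for the virus, is made under the promoter of Gfap, Nes or Cnp, so only cells using that promoter can be infected. The 3 NSC cultures, 1 per line, came from the subventricular zone of adult mice, were also Arf-/- and are labelled as normal controls. No culture was treated. All were grown adherently under stem cell conditions, and the growth text describes dishes coated with a growth factor depleted matrix for the adherent tumour cultures. The coating under the NSC cultures is not described separately. Origin and mouse line cannot be told apart in the tumour cultures, since every group had a line of its own. It is not stated whether replicates were grown from different animals, though sex-linked transcripts (below) differed between replicates of mGC1_GFAP and of mGC2_NES. The p-values therefore cover only how much these cultures vary.

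Integrins are cell surface receptors made of 1 alpha and 1 beta subunit, and the alpha subunit largely sets which matrix protein is bound. Laminins are secreted trimers of an alpha, a beta and a gamma chain that, joined to collagen IV through nidogens, form the basement membrane sheet. In the adult subventricular zone, stem cells contact laminin-rich vessel walls, and laminin receptors such as the Itga6 and Itgb1 pair and dystroglycan are known there as anchors. Laminin is also a usual coating for growing neural stem cells and glioma stem cells.

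Values are on the log2 scale, so a difference of 1 is 2-fold. Array medians lay between 7.60 and 7.66. The highest reading of 4 spermatid genes taken as absent, 7.42, served as a background line. Where the lower mean of a called difference lay at or below that line, the difference is a lower bound. In 9 members the means of tumour and NSC cultures both lay there: Itga10, Itga11, Itgb2, Itgb3, Itgb6, Itgb7, Lama2, Lama3 and Lamb3. Levels of different members were not set against each other. The background line and the marker sums do put different probe sets on 1 scale, and the brightest weigh most in a sum. The labelled cell types, glioma stem cells and normal NSC, were checked with marker lists. The 8 oligodendrocyte precursor markers summed to between 15.52 and 15.68 (log2 of the sum) in tumour cultures and between 14.01 and 14.06 in NSC cultures, with all 8 above the line in every culture. The 9 neural stem cell and astrocyte markers summed to between 14.45 and 14.83 in tumour cultures, with 4 or 5 of them above the line, and between 15.38 and 15.49 in NSC cultures, with all 9 above it. Of the precursor markers 6 were called higher in tumour cultures, and Olig1 and Olig2 were not called. Of the stem cell and astrocyte markers 7 were called lower, and Sox2 and Fabp7 were not called. Each array reads a whole culture, so fewer cells making a transcript and less of it per cell cannot be told apart. The G/tv-a NSC culture read high both for Xist (11.86) and for Y-linked genes (mean 8.39). The members called between tumour and NSC cultures numbered 19 with that culture and 18 without it. Xist alone was high in the C/tv-a NSC culture (12.28), mGC1_GFAP replicate 3 (12.60), mGC2_NES replicate 2 (9.27) and all 3 mGC3_CNP cultures (11.91 to 12.61). Y-linked genes alone were high in the remaining cultures (means of 8.57 to 9.28). These sex-linked transcripts were thus uneven between groups, and their part in the differences was not tested.

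Between tumour and NSC cultures, 9 of 21 receptor genes and 8 of 10 laminin chains passed the test. Of these genes, 7 of the 21 receptor genes and 6 of the 10 laminin chains fell, against 19.2% of all probe sets. The share of receptor genes that passed in either direction was near the 36.7% of all probe sets that passed. Among receptors not called, Itga10, Itga11, Itgb2, Itgb3, Itgb6 and Itgb7 had both means below the background line, where falls would not show. Of the laminin falls, that of Lama2 lay wholly below the line and that of Lama1 came with overlapping groups. Lower in tumour cultures were the laminin receptor subunits Itga6 and Itga7 and the subunits Itga2, Itga2b, Itga4, Itgb5 and Itgb8. The laminin chains Lama1, Lama2, Lama5, Lamb1, Lamb2 and Lamc1 and both nidogens were lower too, Nid2 with overlapping groups. Higher were Itga9, Itga1, the laminin chain Lama4 and, by a small amount, Lamc3. In limma's moderated test, adjusted over all probe sets, 19 of 33 members passed at an adjusted p under 0.05, against 36.7% of all probe sets. Of the members 4 rose and 15 fell, against 17.6% and 19.2% of all probe sets. Among receptors 2 rose, 7 fell and 12 did not pass, with a median difference of -0.12. Among laminin chains 2 rose, 6 fell and 2 did not pass, with a median of -0.40, and both nidogens fell. The median over all members was -0.28 and over all probe sets 0.0072. A call with a difference of at least 2-fold was met by 12 members, 3 higher and 9 lower, against 7.36% of all probe sets. In 17 members the readings of the 9 tumour cultures did not overlap those of the 3 NSC cultures, against 27.3% of all probe sets. Whether the receptors and the laminin chains differed in how often they fell was not tested.

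**Figure D1:**
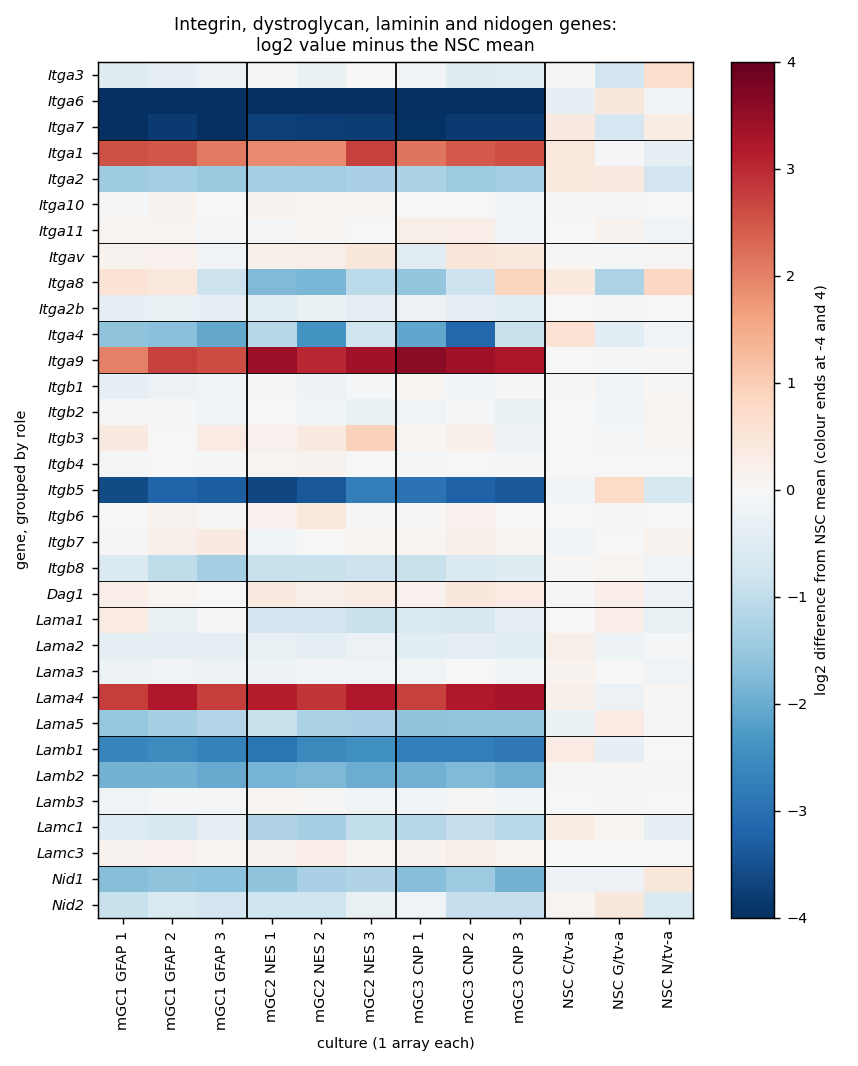
The 33 members, grouped by role (vertical), in the 12 cultures (horizontal, tumour groups left of NSC), with colour showing each culture's log2 value minus the mean of the 3 NSC cultures (red higher, blue lower, the colours of larger differences being saturated). Itga1, Itga9 and Lama4 are red in all 9 tumour cultures, and Itga6, Itga7, Itgb5, Lamb1 and Lamb2 are blue in all 9.

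**Figure D2:**
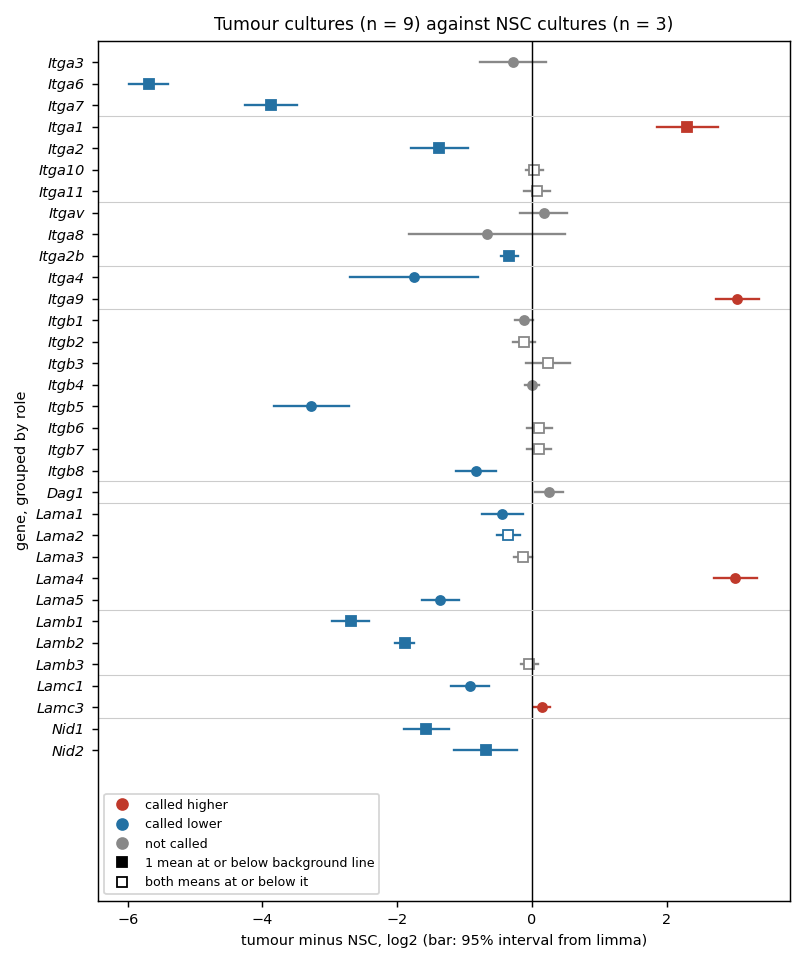
Difference in log2 expression, tumour minus NSC, for each member by role, with 95% confidence intervals from limma (red called higher, blue called lower, grey not called; squares mark members with 1 mean at or below the background line, open squares those with both). The values run from -5.69 for Itga6 to 3.05 for Itga9, and the intervals of Itgb1, Itgav, Itgb4 and Itga3 include 0.

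Promoter windows were at hand for 22 members, from RefSeq on GRCm38.p6. Shown here are the 250 bases before the start of 4 members with large differences, the higher Itga9 and Itga1 and the lower Lamb1 and Itgb5. They lie at chr9:118711442-118711691 (Itga9, plus strand), chr13:115101965-115102214 (Itga1, minus strand), chr12:31265043-31265292 (Lamb1, plus strand) and chr16:33829415-33829664 (Itgb5, plus strand). Each is written 5′ to 3′ on the gene's strand, and capitals mark a GC box, the letters GGGCGG read on either strand.
Itga9: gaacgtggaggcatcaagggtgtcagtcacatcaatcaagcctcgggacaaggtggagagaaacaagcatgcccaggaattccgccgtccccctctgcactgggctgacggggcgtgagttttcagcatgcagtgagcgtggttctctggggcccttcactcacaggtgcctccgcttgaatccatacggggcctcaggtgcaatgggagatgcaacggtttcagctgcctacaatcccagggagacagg
Itga1: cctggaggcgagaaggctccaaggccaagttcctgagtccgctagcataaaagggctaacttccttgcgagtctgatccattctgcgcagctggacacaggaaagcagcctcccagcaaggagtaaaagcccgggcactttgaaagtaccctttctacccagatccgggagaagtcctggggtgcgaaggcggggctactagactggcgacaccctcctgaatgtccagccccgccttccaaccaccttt
Lamb1: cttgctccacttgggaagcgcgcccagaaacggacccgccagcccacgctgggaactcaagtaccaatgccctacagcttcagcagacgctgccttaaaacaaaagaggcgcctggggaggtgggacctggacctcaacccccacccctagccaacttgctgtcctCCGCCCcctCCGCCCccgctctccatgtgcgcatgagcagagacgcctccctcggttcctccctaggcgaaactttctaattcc
Itgb5: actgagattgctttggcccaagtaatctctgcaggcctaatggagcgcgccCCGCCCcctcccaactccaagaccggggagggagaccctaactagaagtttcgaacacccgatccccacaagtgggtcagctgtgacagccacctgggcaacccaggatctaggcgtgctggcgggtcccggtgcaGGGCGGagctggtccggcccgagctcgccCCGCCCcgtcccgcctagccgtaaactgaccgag
The Itgb5 window holds 3 GC boxes and the Lamb1 window 2, while the Itga9 and Itga1 windows hold 0. Of the other called falls with a window, Itga2, Itga2b, Itgb8, Lama2 and Lamb2 hold 0, Itga4 and Nid1 hold 1 and Lama5 holds 4. Of 32851 promoter windows of this length, 32.7% hold at least 1. E-box letters, CANNTG on either strand, occur 3 times in the Itga9 window, 1 time in that of Itga1, 2 times in that of Lamb1 and 3 times in that of Itgb5, and 66.2% of all windows hold at least 1. The letters ACAAT, the core that SOX factors read, occur 1 time in the Itga9 window and 0 times in the other 3, and in 27.7% of all windows on either strand. These matches describe the letters of the windows named and were not tested against the expression values.

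Among the laminin-binding alpha subunits, Itga6 and Itga7 fell in tumour cultures and Itga3 did not pass. Itga6, which pairs with Itgb1 or Itgb4 and is used to sort stem cells, read 5.92, 6.01 and 5.85 in mGC1_GFAP, 5.99, 5.89 and 5.98 in mGC2_NES and 6.41, 6.16 and 6.27 in mGC3_CNP cultures, against 11.41, 11.62 and 12.20 in the C/tv-a, N/tv-a and G/tv-a NSC cultures. All 9 tumour readings lay below the background line and all 3 NSC readings far above it, so the 51.7-fold fall is a lower bound (limma adjusted p = 7.99e-11). Itga7, the laminin receptor best known from muscle, had its lowest, median and highest readings at 6.89, 7.24 and 7.31 in tumour cultures, against 11.43, 11.37 and 10.39 in the C/tv-a, N/tv-a and G/tv-a NSC cultures. No tumour reading came above the line, and the difference was -3.88 ± 0.18 (estimate ± SE, limma adjusted p = 1.80e-08), also a lower bound. Itga3, which binds the laminins that hold the Lama5 chain, read 7.30, 7.52 and 7.80 (lowest, median, highest) in tumour cultures, against 7.84, 8.50 and 7.05 in the C/tv-a, N/tv-a and G/tv-a NSC cultures. The groups overlapped, because the G/tv-a NSC culture read below every tumour culture while the N/tv-a culture read above them. The difference was -0.28 ± 0.22 (95% interval -0.77 to 0.20, adjusted p = 0.372). It turned to 0.07 without the N/tv-a NSC culture and passed at -0.66 (adjusted p = 0.00763) without the G/tv-a one.

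Itgb1, Itgb4 and Dag1 did not pass. Itgb1, the beta subunit of most laminin and collagen receptors, read between 11.65 and 12.05 with a median of 11.86 in tumour cultures, against 12.02, 12.02 and 11.88 in the C/tv-a, N/tv-a and G/tv-a NSC cultures. The groups overlapped, and the difference was -0.12 ± 0.06 (95% interval -0.26 to 0.02, adjusted p = 0.177). Itgb4, the hemidesmosome subunit that pairs with Itga6 in epithelia, read between 7.39 and 7.61 with a median of 7.47 in tumour cultures, against 7.48, 7.48 and 7.47 in NSC cultures. These readings lay close to the background line in both (95% interval of the difference -0.10 to 0.10). Dag1, the dystroglycan precursor and a laminin receptor outside the integrin family, read between 11.53 and 11.95 with a median of 11.76 in tumour cultures, against 11.45, 11.28 and 11.77 in the C/tv-a, N/tv-a and G/tv-a NSC cultures. The groups overlapped through the G/tv-a NSC culture, and the difference of 0.25 ± 0.10 did not pass (95% interval 0.04 to 0.46, adjusted p = 0.063). It passed without that culture (0.38, adjusted p = 0.00583) and without mGC3_CNP replicate 1 (0.27, adjusted p = 0.0462).

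Of the 4 collagen-binding alpha subunits, Itga1 rose, Itga2 fell and Itga10 and Itga11 did not pass and had means below the background line. Itga1, a receptor for collagen IV and also for laminin, read 8.93, 9.48 and 9.76 (lowest, median, highest) in tumour cultures, against 7.46, 6.68 and 6.95 in the C/tv-a, N/tv-a and G/tv-a NSC cultures. Every tumour reading was above every NSC reading, and the difference was 2.31 ± 0.20 (adjusted p = 4.17e-06), a lower bound because the NSC mean lay below the line. Itga2, the alpha subunit of the other main collagen receptor, read 6.46, 6.55 and 6.65 in tumour cultures, all below the line, against 8.32, 7.16 and 8.29 in NSC cultures, where the N/tv-a culture was the low one. The difference was -1.37 ± 0.19 (adjusted p = 1.52e-04), a lower bound.

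Itga9 rose and Itga4 fell, and these subunits form a small subfamily apart from the laminin and collagen receptors. Itga9, a receptor for tenascin C and osteopontin among others, read 9.44, 10.17 and 10.05 in mGC1_GFAP, 10.89, 10.44 and 10.80 in mGC2_NES and 11.03, 10.81 and 10.67 in mGC3_CNP cultures, against 7.45, 7.49 and 7.35 in the C/tv-a, N/tv-a and G/tv-a NSC cultures. The lowest tumour culture stood well above the highest NSC culture, and the NSC readings lay at about the background line. The difference was 3.05 ± 0.15, or 8.27-fold (adjusted p = 2.64e-08). Itga4, a receptor for VCAM1 and fibronectin, read 6.37, 7.84 and 8.71 (lowest, median, highest) in tumour cultures, against 10.09, 9.36 and 9.04 in the C/tv-a, N/tv-a and G/tv-a NSC cultures. The groups did not overlap although the tumour cultures spread widely, and the difference was -1.75 ± 0.43 (adjusted p = 0.0070). Without the C/tv-a NSC culture it was -1.45 with an adjusted p of 0.0503.

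Of the 3 alpha subunits that bind RGD, a short peptide motif of fibronectin and vitronectin, Itga2b fell by 0.34 ± 0.06 (adjusted p = 5.02e-04) with a tumour mean below the background line and an NSC mean of 7.67 just above it, a lower bound. Itgav, which pairs with Itgb1, Itgb3, Itgb5, Itgb6 and Itgb8, read between 11.56 and 12.47 with a median of 12.20 in tumour cultures, against 12.02, 12.02 and 11.92 in NSC cultures. The groups overlapped and the difference was 0.18 ± 0.16 (95% interval -0.17 to 0.52, adjusted p = 0.448), but it passed at 0.27 (adjusted p = 0.0192) without mGC3_CNP replicate 1, the lowest reading. Itga8, which binds nephronectin, ranged from 7.37 to 10.10 in tumour cultures and from 7.98 to 10.04 in NSC cultures and did not pass (-0.67 ± 0.53, 95% interval -1.83 to 0.48, adjusted p = 0.372).

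Of the beta partners of Itgav, Itgb5 and Itgb8 fell. Itgb5, whose pair with Itgav is a vitronectin receptor, read 7.17, 7.52 and 8.06 (lowest, median, highest) in tumour cultures, against 10.72, 10.17 and 11.58 in the C/tv-a, N/tv-a and G/tv-a NSC cultures. No readings overlapped, and the difference was -3.27 ± 0.25, or 9.67-fold lower (adjusted p = 1.41e-06). The tumour mean of 7.55 lay just above the background line, and 7 of 9 tumour readings were above it. Itgb8, whose pair with Itgav activates latent TGF-beta and is known from astrocytes and neural stem cells, read 10.68, 11.15 and 11.54 in tumour cultures, against 12.08, 11.88 and 12.13 in NSC cultures. The groups did not overlap, and it fell by 0.84 ± 0.14 (adjusted p = 4.36e-04), and all 12 readings stayed far above the background line. Itgb3, the vitronectin receptor subunit of platelets and growing vessels, and Itgb6, a subunit of epithelia, did not pass and had both means below the line. The leukocyte subunits Itgb2 and Itgb7 were likewise dim and not called.

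**Figure D3:**
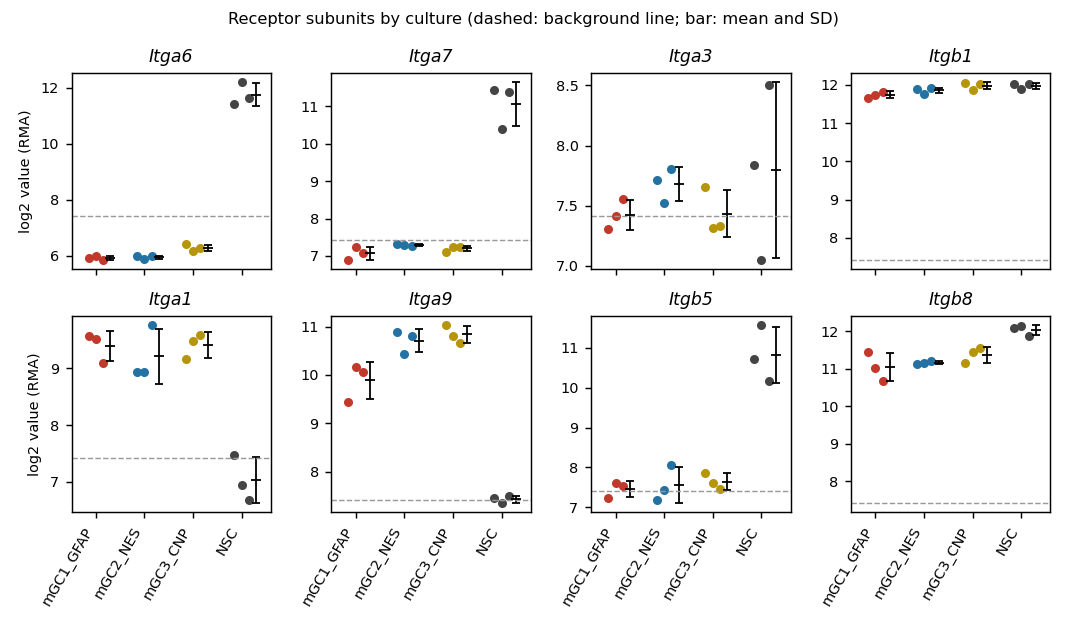
Log2 expression (vertical) of receptor members in each culture (points) of mGC1_GFAP, mGC2_NES, mGC3_CNP and NSC (left to right), with bars at the group mean ± SD (n = 3 each). Itga6 and Itgb5 are high in the NSC cultures, Itga9 is high in all tumour groups with mGC1_GFAP the lowest of them, and the Itgb1 readings lie between 11.65 and 12.05.

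Among the laminin alpha chains, which carry the receptor-binding end of the trimer, Lama4 rose while Lama1, Lama2 and Lama5 fell. Lama4, a chain with a short arm made by vessel walls and Schwann cells, read 10.68, 11.14 and 10.68 in mGC1_GFAP, 11.06, 10.79 and 11.12 in mGC2_NES and 10.68, 11.14 and 11.24 in mGC3_CNP cultures, against 8.13, 7.96 and 7.70 in the C/tv-a, N/tv-a and G/tv-a NSC cultures. The 3 tumour groups overlapped each other and lay far above all NSC readings, an 8.11-fold difference (adjusted p = 2.52e-08). Lama5, the broadly made chain of mature basement membranes, read 7.90, 8.18 and 8.64 (lowest, median, highest) in tumour cultures, against 9.26, 9.43 and 9.86 in the C/tv-a, N/tv-a and G/tv-a NSC cultures. No readings overlapped, and the difference was -1.36 ± 0.13, or 2.57-fold lower (adjusted p = 5.90e-06). Lama1, a chain of embryonic basement membranes, differed by -0.44 ± 0.14 with overlapping groups (adjusted p = 0.0262). Its call was lost without the C/tv-a NSC culture (-0.43, adjusted p = 0.0823) and without the G/tv-a one (-0.30, adjusted p = 0.157). Lama2, the chain of muscle and nerve that dystroglycan binds, read 5.89, 5.95 and 6.07 in tumour cultures, against 6.54, 6.26 and 6.10 in NSC cultures. All 12 readings lay below the background line. The difference of -0.35 ± 0.08 passed (adjusted p = 0.0036), and without the C/tv-a NSC culture, the highest, it was -0.23 (adjusted p = 0.0164). Lama3, the chain of epithelial laminin, did not pass (-0.13 ± 0.06, adjusted p = 0.129) and passed without the N/tv-a NSC culture (adjusted p = 0.0407), at readings below the line.

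Cells that make Lama4 in tissue were looked for through their markers. The 8 endothelial markers summed to between 9.64 and 10.29 in tumour cultures, with 0 to 2 of them above the background line, and to between 9.84 and 9.90 in NSC cultures, with 1 above it. The 9 pericyte and fibroblast markers summed to between 10.13 and 10.32 in tumour cultures and between 10.16 and 10.24 in NSC cultures, with 3 of 9 above the line in every culture of both. Of 5 measured Schwann cell markers 3 rose. The 5 summed to between 13.26 and 13.73 in tumour cultures and between 12.22 and 12.30 in NSC cultures. In both, 2 or 3 of them lay above the line. Egr2 rose by 1.83 ± 0.15 and Pmp22 by 1.21 ± 0.06. Foxd3 also rose (0.24 ± 0.06), with both means below the line. Cdh19 (0.94 ± 0.50) did not pass, and Mal read below the line in tumour and NSC means. The part of such cells in the rise of Lama4 was not tested.

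Both beta chains that build most laminins fell. Lamb1 read 6.73, 6.96 and 7.19 (lowest, median, highest) in tumour cultures, against 9.97, 9.68 and 9.32 in the C/tv-a, N/tv-a and G/tv-a NSC cultures. Lamb2, the beta chain of synapses and vessel walls, read 7.27, 7.39 and 7.51 in tumour cultures, against 9.33, 9.19 and 9.32 in NSC cultures. For both chains the tumour mean was below the background line and the groups did not overlap. The lower bounds were 6.46-fold for Lamb1 (adjusted p = 2.07e-08) and 3.71-fold for Lamb2 (-1.89 ± 0.06, adjusted p = 1.34e-09). Lamb3, the epithelial beta chain, stayed below the line in tumour and NSC means and was not called.

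Of the gamma chains and nidogens, Lamc1, Nid1 and Nid2 fell and Lamc3 rose. Lamc1, the gamma chain of nearly all brain laminins, read 10.80, 10.66 and 10.90 in mGC1_GFAP, 10.10, 9.97 and 10.30 in mGC2_NES and 10.16, 10.37 and 10.18 in mGC3_CNP cultures, against 11.60, 10.91 and 11.40 in the C/tv-a, N/tv-a and G/tv-a NSC cultures. Lamc1 fell 1.89-fold with no overlap (adjusted p = 1.35e-04), and its readings lay far above the background line in the tumour cultures. Lamc3 rose by 0.15 ± 0.05 (adjusted p = 0.0423), a call lost with an intensity trend in the prior (adjusted p = 0.06), with centred arrays (0.134) and when any of 7 arrays was left out. Nid1, the main linker of laminin to collagen IV, read 6.36, 6.62 and 7.03 (lowest, median, highest) in tumour cultures, against 8.01, 8.71 and 7.99 in the C/tv-a, N/tv-a and G/tv-a NSC cultures. The groups did not overlap, and it fell by 1.57 ± 0.15 (adjusted p = 7.62e-06), a lower bound. Nid2, its relative, fell by 0.69 ± 0.21 (adjusted p = 0.0250) with overlapping groups. The call was lost without the C/tv-a NSC culture (-0.63, adjusted p = 0.0972) and without the G/tv-a one (-0.46, adjusted p = 0.157).

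**Figure D4:**
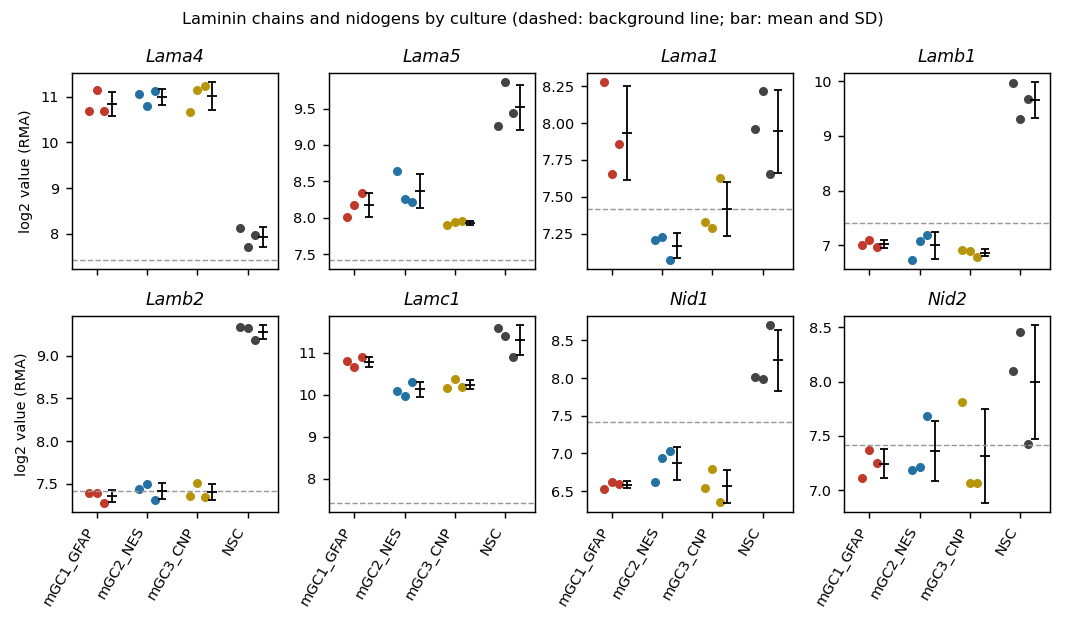
Log2 expression (vertical) of laminin chains and nidogens in each culture (points) of mGC1_GFAP, mGC2_NES, mGC3_CNP and NSC (left to right), with bars at the group mean ± SD (n = 3 each). Lama4 is high in all 9 tumour cultures, Lamb1 and Lamb2 are high in the NSC cultures, and Lama1 and Lamc1 have their highest tumour group mean in mGC1_GFAP.

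Each tumour group was also set against the NSC cultures, and these comparisons share the 3 NSC arrays. In mGC1_GFAP 17 members passed, 3 higher and 14 lower, against 29.3% of all probe sets (13.9% higher and 15.3% lower). In mGC2_NES 16 passed, 3 higher and 13 lower, against 34.9% (16.6% higher and 18.2% lower). In mGC3_CNP 17 passed, 3 higher and 14 lower, against 30.3% (14.9% higher and 15.5% lower). Lama1 differed from NSC by -0.01 ± 0.17 in mGC1_GFAP (adjusted p = 0.970), by -0.78 in mGC2_NES (0.00367) and by -0.53 in mGC3_CNP (0.0342). Lamc1 differed by -0.51 in mGC1_GFAP (adjusted p = 0.0271), by -1.18 in mGC2_NES (1.19e-04) and by -1.06 in mGC3_CNP (3.05e-04). Itga4 differed by -1.77 in mGC1_GFAP (adjusted p = 0.025), by -1.45 in mGC2_NES (0.0534) and by -2.03 in mGC3_CNP (0.0119). Itgb1 differed by -0.24 in mGC1_GFAP (adjusted p = 0.0399), by -0.12 in mGC2_NES (0.269) and by 0.00033 in mGC3_CNP (0.998).

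Each tumour group could also be set against the 1 NSC culture of its own mouse line, without a test. Where the readings of tumour and NSC cultures did not overlap, as in 17 members, the choice of NSC culture could not change the sign. Itga6 differed by -6.27 in mGC1_GFAP, -5.67 in mGC2_NES and -5.13 in mGC3_CNP, and Itga9 by 2.54, 3.22 and 3.38 in the same groups. Itgb5 differed by -4.12, -2.61 and -3.08, Lama4 by 3.13, 3.03 and 2.89 and Lamb1 by -2.29, -2.68 and -3.10. Of the 14 members that had not passed, 8 had both signs over the 3 lines and 6 had 1 sign (Itgav, Itgb1, Itgb3, Itgb6, Lama3 and Lamb3). Itga8 differed by 1.26 in mGC1_GFAP, -2.40 in mGC2_NES and -0.88 in mGC3_CNP, and Itga3 by 0.38, -0.83 and -0.41.

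The question of the cell of origin was addressed by comparing the tumour groups with each other on the 9 tumour arrays. Sex-linked transcripts were uneven between mGC3_CNP and the other tumour groups, and no comparison was adjusted for them. Lamc1 and Lama1, a gamma and an alpha chain, were higher in mGC1_GFAP than in mGC2_NES cultures, and Itga9 was lower. These 3 of 33 members passed, against 6.13% of all probe sets (3.12% higher and 3.02% lower). Lamc1 averaged 10.79 ± 0.12 in mGC1_GFAP and 10.12 ± 0.17 in mGC2_NES cultures (SD, n = 3 each), with no overlap (0.66 ± 0.10, limma adjusted p = 0.00985). Lama1 read 8.28, 7.65 and 7.86 in mGC1_GFAP, 7.21, 7.22 and 7.07 in mGC2_NES and 7.33, 7.29 and 7.62 in mGC3_CNP cultures, against 7.96, 7.66 and 8.22 in the C/tv-a, N/tv-a and G/tv-a NSC cultures. The mGC1_GFAP readings overlapped those of the NSC cultures, and all readings of the other tumour groups lay below both. Lama1 averaged 7.93 ± 0.32 in mGC1_GFAP and 7.17 ± 0.08 in mGC2_NES cultures (SD, n = 3 each), again with no overlap (0.76 ± 0.15, limma adjusted p = 0.0226), and all 3 mGC2_NES readings lay below the background line. Itga9 averaged 9.89 ± 0.39 in mGC1_GFAP and 10.71 ± 0.24 in mGC2_NES cultures (SD, n = 3 each), without overlap (-0.82 ± 0.19, limma adjusted p = 0.0404). Leaving out 1 array at a time kept the Lamc1 call (adjusted p between 0.0123 and 0.0386). It gave adjusted p between 0.0174 and 0.0744 for Lama1 and between 0.0396 and 0.117 for Itga9. Only 1 member passed without mGC1_GFAP replicate 3 or without any of the mGC2_NES replicates.

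Against mGC3_CNP, 0 members passed from mGC1_GFAP (0.487% of all probe sets did) and 0 from mGC2_NES (0.459%). At an unadjusted p under 0.05 there were 5 members in the comparison of mGC1_GFAP with mGC3_CNP (Itga6, Itga9, Itgb1, Lama1 and Lamc1), against 12.9% of all probe sets. There were 4 in that of mGC2_NES with mGC3_CNP (Itga6, Itgb3, Lama5 and Nid1), against 13.3% of all probe sets. Both counts are near what the whole table gave. As mGC1_GFAP minus mGC3_CNP, Lamc1 differed by 0.55 ± 0.10 (adjusted p = 0.07), Lama1 by 0.52 ± 0.15 (0.197) and Itga9 by -0.95 ± 0.19 (0.086). The test of any difference among the 3 tumour groups passed for 2 members, Lamc1 (adjusted p = 0.0197) and Itga9 (0.045), against 4.05% of all probe sets. It passed for 0 members without mGC1_GFAP replicate 1 or replicate 3 and for 1 without any single other tumour array except mGC1_GFAP replicate 2.

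Genes that work with these receptors and ligands were counted between tumour and NSC cultures. Of 26 measured genes of integrin activation and focal adhesion, 5 rose, 8 fell and 13 did not pass, with a median of -0.12 over their 31 probe sets. Tns1 alone held 6 of the 31, so that median is not one by gene. For these lists too, 17.6% of all probe sets were higher and 19.2% lower, with a median of 0.0072. The tensins Tns2 (2.68 ± 0.19) and Tns3 (1.28 ± 0.16), which tie integrin tails to actin, and Lims2 (1.91 ± 0.14), a partner of the integrin-linked kinase, were among the rises. The parvins Parvb (-2.16 ± 0.26, a lower bound) and Parva (-1.01 ± 0.10), from the same kinase complex, were among the falls. Tns1 differed by -1.25 to -0.32 over its 6 probe sets, of which 5 passed and 2 are lower bounds. Of 14 measured genes of the dystroglycan complex and of the sugar chain by which dystroglycan binds laminin, 6 rose, 3 fell and 5 did not pass, with a median of -4.9e-05. The sarcoglycans Sgcd (2.73 ± 0.11, a lower bound) and Sgce (1.20 ± 0.11) and their neighbour Sspn (0.97 ± 0.15) rose, while the mannosyltransferases Pomt1 (-0.62 ± 0.08) and Pomt2 (-0.58 ± 0.08) and the dystrobrevin Dtna (-0.58 ± 0.06) fell.

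Among 11 other laminin receptors and tetraspanins, membrane proteins that travel with integrins, 3 rose, 3 fell and 5 did not pass, with a median of -0.32 over 15 probe sets. Rpsa alone held 5 of these 15 probe sets, all lower, so that median leans on 1 gene and is not one by gene. Tspan4 (0.98 ± 0.30), Cd9 (0.73 ± 0.09) and the laminin receptor Bcam (0.50 ± 0.07) rose. The syndecans Sdc4 (-2.74 ± 0.15) and Sdc1 (-0.32 ± 0.09) fell, as did Rpsa in each of its 5 probe sets (-0.41 to -0.33). Of 17 measured basement membrane and integrin ligand genes 3 rose, 8 fell and 6 did not pass, with a median of -0.59. Postn (3.01 ± 0.63, a lower bound), Tnr (2.38 ± 0.27) and Agrn (0.66 ± 0.12), a heparan sulfate proteoglycan that binds laminin and dystroglycan, rose. Fbln2 (-3.74 ± 0.18, a lower bound), Tnc (-3.39 ± 0.53), a ligand of the Itga9 receptor, and Fn1 (-2.36 ± 0.27) fell. Of 7 further integrin and laminin genes outside the set, the fibronectin receptor subunit Itga5 was the 1 that passed, and it fell to a tumour mean below the background line.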

How the data were processed

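The authors deposited 1 log2 value per probe set and array. The submitters' processing notes name RMA and Affymetrix Expression Console. RMA removes background, gives every array the same distribution of values and combines the probes of a set, which hides any shift common to most transcripts. Software version, annotation release and summarisation level: not given in the sources used here. Values were used as deposited, with no filter. Of 28270 probe sets, 21780 carried exactly 1 symbol in the platform annotation (1617 had several and 4873 were not listed), and these were tested. Arrays hold no read depth, and their number limits the precision. No 2 arrays held identical values.

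Tests used limma 3.58.1 in R 4.3.3 (lmFit, then eBayes with 1 prior variance for all probe sets; two-sided). P-values were adjusted by Benjamini-Hochberg over the 21780 probe sets, and a call needed an adjusted p under 0.05. Comparisons with NSC were fitted on all 12 arrays, the tumour side being the mean of its 3 group means, and comparisons among tumour groups on the 9 tumour arrays. The fit was tested on simulated data. Differences are estimates ± SE, and levels are mean ± SD.

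Members, partner lists and markers were chosen with earlier results of these data known, so no list gives independent support. Values by culture were given for members called with at least 2-fold, for those called among tumour groups and for the main laminin-binding subunits and chains. From each partner list up to 3 called genes with the largest measured rise and 3 with the largest measured fall were named, lower bounds included. Alternatives were an intensity trend in the prior, a filter on dim probe sets, median centring, other sets of arrays in the fit, mouse line or replicate number as a block, and leaving out each array. Same-numbered cultures of mGC2_NES and mGC3_CNP deviated together from their group means (correlations of 0.132 to 0.254 in 3 pairs), and a replicate block changed no member's call between them. Promoter sequences were from RefSeq (GRCm38.p6), whose build need not be that of the array annotation.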

Additional observations from a re-analysis of the deposited data

Results flagged for a closer look

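The difference between mGC1_GFAP and mGC2_NES cultures was itself tested for each member and passed for Lamc1 (0.66, adjusted p = 0.00985), Lama1 (0.76, adjusted p = 0.0226) and Itga9 (-0.82, adjusted p = 0.0404) in limma's moderated test. The same contrasts give how far the differences of these members from the NSC cultures stood apart between both groups. The Lamc1 call was kept under all 14 alternatives, while the Lama1 call was lost under 4 of them and the Itga9 call under 8.

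A single tumour culture stood apart from the other 8 in 2 of 33 members, where chance alone would mark about 5% of such sets. Itgb6 read 5.50 in mGC2_NES replicate 2, with the nearest other culture at 5.25. Lama3 read 6.62 in mGC3_CNP replicate 2, with the nearest other culture at 6.50. Both readings lay below the background line.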

How the results depend on the processing

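Between tumour and NSC cultures 19 members passed, 18 with an intensity trend in the prior, 18 with centred arrays, 19 without dim probe sets, 19 with mouse line as a block and 15 to 21 when 1 array was left out. The shares of all probe sets that passed were 36.7%, 36.7%, 37.0%, 56.3%, 35.9% and 31.1% to 37.3% in the same order. The 56.3% refers to the probe sets kept by the filter, which also removed dim members. Of these 19, 14 passed in the same direction under all 16 alternatives. Lama2 did under the 15 run for it, since the filter on dim probe sets removes it. Itga4, Lama1, Lamc3 and Nid2 each lost the call in at least 1. Of the 14 members not called, Itga3, Itgav, Dag1 and Lama3 passed under at least 1 alternative (Dag1 also without dim probe sets, adjusted p = 0.0481). With 1 array left out Itga3 ranged from -0.66 to 0.069, Itga11 from -0.000976 to 0.14 and Itgb4 from -0.0098 to 0.0112, so their sign was not settled. The counts were 14 to 18 for mGC1_GFAP, 15 to 19 for mGC2_NES and 15 to 19 for mGC3_CNP against NSC cultures with 1 array left out. For mGC1_GFAP against mGC2_NES cultures, 1 to 3 members passed with 1 array left out and 3 in the fit on all 12 arrays. In the test of any difference among tumour groups, where 2 passed, 4 did without dim probe sets, 1 in the fit on all 12 arrays and 0 to 2 with 1 array left out. The Itga6 difference between mGC1_GFAP and mGC2_NES cultures ranged from -0.067 to 0.0134 (positive without mGC1_GFAP replicate 3), and that of Itga9 between mGC2_NES and mGC3_CNP cultures from -0.22 to 0.01 (positive without mGC2_NES replicate 2). The cause was not tested.

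Of 9 pairs of tumour cultures with the same replicate number, 5 correlated above 0.1 in their deviations from group means (0.00224 to 0.254), and 6 of 9 cultures correlated best with their own number, a hint from the data and not from the labels. Pairing was taken to need every pair of both groups above 0.1, which did not hold for mGC1_GFAP against either other group. With the replicate block 2 members passed between mGC1_GFAP and mGC2_NES (Itga9 at -0.82, adjusted p = 0.0739), 0 in the other pairs of tumour groups, and 1 in the test of any difference. Readings below the background line bound a difference from 1 side, so the sizes of those falls and rises cannot be ranked.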

Other observations

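Itga4 and Itga8 spread more among the tumour cultures than the other members. Itga4 read 7.90, 7.84 and 7.44 in mGC1_GFAP, 8.35, 7.11 and 8.71 in mGC2_NES and 7.42, 6.37 and 8.62 in mGC3_CNP cultures, an SD of 0.76 over the 9. Itga8 read 9.74, 9.62 and 8.36 in mGC1_GFAP, 7.43, 7.37 and 8.11 in mGC2_NES and 7.67, 8.36 and 10.10 in mGC3_CNP cultures, an SD of 1.04. The NSC cultures spread likewise for Itga8, at 9.59, 10.04 and 7.98 in the C/tv-a, N/tv-a and G/tv-a cultures. The difference of Itga8 between mGC1_GFAP and mGC2_NES cultures was 1.61 ± 0.58 and did not pass in limma (adjusted p = 0.15).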
